A study of Homo sapiens with 24 samples.

Results

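The RNA levels of 10 S100 genes, S100A2, S100A3, S100A4, S100A6, S100A10, S100A11, S100A13, S100A14, S100A16 and S100P, were followed in 3 human liver cancer cell lines given a DNA methyltransferase inhibitor, an EZH2 inhibitor or both. They are 10 of 63677 genes in the deposited table, taken by gene name. The set was chosen from measured values, because S100A4 was higher after decitabine than after vehicle in every line. The difference between decitabine and vehicle is therefore given as a description, with no test.

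The lines, HepG2, SNU398 and SNU475, are labelled as liver hepatocellular carcinoma of wild-type genotype. Each received daily doses for 3 days of vehicle (DPBS, a phosphate-buffered saline), of 5-Aza-CdR (decitabine) at 100 nM, of GSK-126 at 500 nM, or of both drugs (here called the combination). Decitabine is a nucleoside analogue that traps DNA methyltransferases, and GSK-126 blocks EZH2, the enzyme that methylates lysine 27 of histone H3. HepG2 and SNU398 were harvested on day 14 and SNU475 on day 21, so line and harvest day cannot be told apart. Each of the 12 groups had 2 libraries of total RNA depleted of ribosomal RNA, replicates A and B. The labels do not say whether A and B were separate cultures, so p-values measure the spread between these libraries, which may be technical. The reads behind each library, recovered from the RPKM values, ranged from 32.61 to 60.37 in units of 1000000 reads.

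S100 proteins are small proteins of vertebrates that carry EF-hand calcium-binding sites and mostly act as dimers. Calcium opens a surface on the dimer that binds target proteins such as annexins, myosin and the p53 protein. S100A10 is an exception that does not need calcium and pairs with annexin A2. Most of the family lies in 1 cluster on chromosome 1, and several members are known from studies of tumour cell motility and invasion.

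In hg19, 9 of the 10 genes lay on chromosome 1 and S100P on chromosome 4. S100A4 (ENSG00000196154), a binding partner of non-muscle myosin that is abundant in fibroblasts, spanned chr1:153516089-153522612. S100A3 (ENSG00000188015), known from hair follicles, lay wholly within that span at chr1:153519805-153521848, on the same strand. Reads of these neighbours could have been split between them by the counting, so S100A3 values are uncertain where S100A4 is high. S100A6 (ENSG00000197956, calcyclin) lay at chr1:153507075-153508720, and S100A2, S100A16, S100A14 and S100A13 followed on the other side of S100A4. S100A10 (ENSG00000197747) at chr1:151955391-151966866 and S100A11 (ENSG00000163191) at chr1:152004982-152020383 were farther away. S100P (ENSG00000163993), first found in placenta, spanned chr4:6694796-6698897. The strand setting of the counting is not given in the sources used here. S100A6 shared 517 bases of its span with the antisense gene BX470102.3, S100A11 shared 10269 with NBPF18P, and S100A13 shared 4112 with S100A1, which lies on the opposite strand.

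Decitabine acts at cytosines followed by guanine (CpG). All 10 genes had an entry among RefSeq's promoters of GRCh38.p14, which hold 250 bases before and 50 bases after a gene's start, and 3 of the genes had more than 1 entry. The 4 sequences below are printed because S100A4, S100A6 and S100A11 had the 3 largest log2 changes, on the scale used here, for the combination against GSK-126 in both HepG2 and SNU398, while S100P moved in opposite directions in HepG2 and SNU475. Each reads 5′ to 3′ on the gene's strand, with every CpG in capitals.
S100A4, chr1:153545757-153546056, minus strand: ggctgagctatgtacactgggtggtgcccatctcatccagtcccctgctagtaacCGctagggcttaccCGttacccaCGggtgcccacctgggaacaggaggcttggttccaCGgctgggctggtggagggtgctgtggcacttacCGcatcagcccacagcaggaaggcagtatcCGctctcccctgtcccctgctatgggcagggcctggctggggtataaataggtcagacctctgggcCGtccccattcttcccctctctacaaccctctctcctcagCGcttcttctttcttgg
S100A6, chr1:153535942-153536241, minus strand: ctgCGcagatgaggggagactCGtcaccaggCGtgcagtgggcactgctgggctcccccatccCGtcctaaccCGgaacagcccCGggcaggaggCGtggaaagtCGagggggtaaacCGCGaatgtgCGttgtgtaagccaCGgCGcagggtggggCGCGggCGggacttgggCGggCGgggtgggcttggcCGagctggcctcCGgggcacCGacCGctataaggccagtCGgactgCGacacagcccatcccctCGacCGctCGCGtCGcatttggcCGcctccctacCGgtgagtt
S100A11, chr1:152036955-152037254, minus strand: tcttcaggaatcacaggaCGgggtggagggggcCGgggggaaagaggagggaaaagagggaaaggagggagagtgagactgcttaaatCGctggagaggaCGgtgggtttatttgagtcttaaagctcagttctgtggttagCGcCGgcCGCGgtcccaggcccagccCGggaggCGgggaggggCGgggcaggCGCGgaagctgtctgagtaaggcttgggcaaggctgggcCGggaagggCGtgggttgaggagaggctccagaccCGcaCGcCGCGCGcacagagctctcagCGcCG
S100P, chr4:6693628-6693927, plus strand: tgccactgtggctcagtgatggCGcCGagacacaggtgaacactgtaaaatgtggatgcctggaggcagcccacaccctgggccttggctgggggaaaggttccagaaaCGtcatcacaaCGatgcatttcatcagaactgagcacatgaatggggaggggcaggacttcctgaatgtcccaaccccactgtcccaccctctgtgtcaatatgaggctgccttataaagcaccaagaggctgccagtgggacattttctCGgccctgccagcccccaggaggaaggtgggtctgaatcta

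These windows differ widely in CpG. S100A4 had 8 CpGs in its 300 bases and S100P had 5, below the median of 14 over 35114 RefSeq promoters. S100A6 had 31, S100A10 had 32 and S100A11 had 22. Of all promoters, 81.1% had as few CpGs as S100A6 or fewer, and 41.6% had as few as S100A4 or fewer. S100A3 and S100A14 had 5 each, the entries of S100A2 had 4 and 5, those of S100A16 had 3 and 8, and those of S100A13 had 11, 12 and 19. S100A4 thus lay below the median, and S100A6 and S100A11 above it. Both strands were also searched for 3 motifs, whose letters cannot overlap one another. TATAAA, the core of a TATA box, was present in S100A4, S100P and an entry of S100A13, and in 11.5% of all promoters. TGAGTCA, the site bound by AP-1, was present in S100A3 and an entry of S100A2, and in 4.9% of all. GGGCGG, the core of a GC box, was present in S100A3, S100A6, S100A10, S100A11 and an entry each of S100A13 and S100A16, and in 45.0% of all. These matches are a description of the letters only, and DNA methylation was not analysed here.

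**Figure D1:**
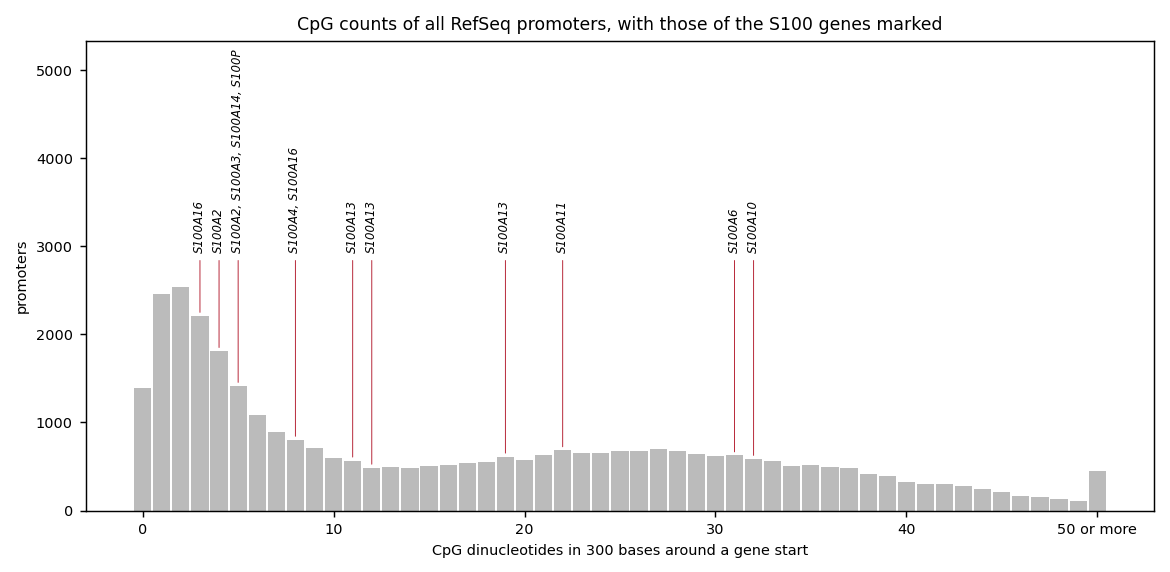
CpG dinucleotides in 300 bases around the start of 35114 RefSeq promoters (x axis, count, with 50 or more pooled; y axis, number of promoters). Red lines mark the entries of the 10 S100 genes, from 3 CpGs for an entry of S100A16 to 32 for S100A10.

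Levels are given as scaled RPKM, that is, deposited RPKM (reads per kilobase of gene model and per 1000000 reads), divided by a factor per library that ranged from 0.847 to 1.158. They are comparable between genes per length. Differences are log2 changes of scaled RPKM + 0.5 with their standard errors (SE), which understate the change of low genes, and folds are ratios of mean scaled RPKM. Tests are limma's, two-sided, over 19377 genes with an adjusted p under 0.05 called. The spread was estimated over all 24 libraries. All 10 genes passed the filter on low values, which needed a level of at least 0.5 RPKM in 2 libraries. In SNU398, S100A14 had 0 to 1 reads a library and S100P 0 to 9. In every count of these 10 genes below where limma called 0 in a direction, the count in that direction at an unadjusted p under 0.05, and by limma with voom weights on the recovered reads, was also 0, apart from the exceptions named there.

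In vehicle-treated cells, 8 of the 10 S100 genes were highest in SNU475, and all had their lowest mean in SNU398. S100A6 stood at 478 and 493 in the SNU475 libraries, at 14.2 and 13 in HepG2, and at 0.385 and 0.126 in SNU398. S100A11, a partner of annexin A1, stood at 311 and 325, at 8.89 and 8.16, and at 0.212 and 0.202. For both genes the 3 lines were far apart, with no overlap of libraries. S100A10, the annexin A2 partner, had the highest level of the 10 genes in SNU398. Its libraries stood at 4.36 and 4.61 there, at 31.1 and 29.9 in HepG2, and at 281 and 286 in SNU475. S100A4 stood at 18.6 and 17.1 in SNU475, 1.67 and 1.14 in HepG2, and 0.238 and 0.224 in SNU398. S100P and S100A14 were highest in HepG2 instead. S100P stood at 32.6 and 30.5 there, at 0.592 and 0.413 in SNU475 and at 0.0113 and 0 in SNU398, and S100A14 at 0.924 and 1.13, 0.325 and 0.310, and 0.0113 and 0.0121.

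By limma, 10 of the 10 genes were higher in SNU475 than in SNU398 under vehicle, where 40.0% of all genes tested were higher and 38.1% lower. The largest difference was that of S100A6, 9.35 on the log2 scale (SE 0.24, adjusted p = 1.1e-14), and the smallest that of S100A14, 0.68 (SE 0.07). S100A6 in SNU398 vehicle libraries lay near a ceiling of RNA from the other lines that is described below, so the size of its difference is uncertain. Between SNU475 and HepG2, 8 genes were higher in SNU475 and 2 lower, against 42.4% and 36.9% of all genes. The 2 that were lower in SNU475 were S100P, by 62.8-fold, and S100A14, an epithelial gene, by 3.24-fold. Between SNU398 and HepG2, 9 genes were lower in SNU398 and 0 higher, against 36.5% and 40.0% of all genes. S100A16 was 92.3-fold lower in SNU398, and S100A6 was lower too, with no fold given because of that ceiling. S100A2, a p53-binding member of basal epithelia, was the one with no call, at 0.110 and 0.0777 in SNU398 and 0.0954 and 0.191 in HepG2.

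The lines also differed in liver markers. The summed level of 18 hepatocyte genes ranged over the libraries from 11300 to 18500 (HepG2), from 0.803 to 75.7 (SNU398) and from 12.3 to 140 (SNU475). HNF4A, a defining hepatocyte factor, stood at 66.4 to 77.4 in HepG2 and at no more than 0.3 and 0.432 in the others, and ALB at 2050 to 5540 against at most 22.1 and 24.1. The hepatocyte markers were thus near absent in SNU398 and SNU475. The sum of 13 mesenchymal genes was 317 to 343 in HepG2, 657 to 741 in SNU398 and 961 to 1130 in SNU475. VIM, the mesenchymal filament vimentin, stood at 0.0887 to 2.99 in HepG2, 323 to 430 in SNU398 and 173 to 321 in SNU475. Under vehicle, 7 of the 13 mesenchymal genes were higher in SNU398 than in HepG2 and 6 lower by limma, beside 40.0% and 36.5% of all genes. In SNU475, 11 were higher than in HepG2 and 1 lower, beside 42.4% and 36.9%. SNU398 thus had high VIM beside the lowest S100 levels, while its mesenchymal genes as a list were split. PECAM1, an endothelial marker, was listed at 0 in every library. Its only entry lies on a patch sequence of hg19 outside the main chromosomes, so that 0 cannot be read as absence of its RNA. PTPRC, a leukocyte marker, was at most 0.584.

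**Figure D2:**
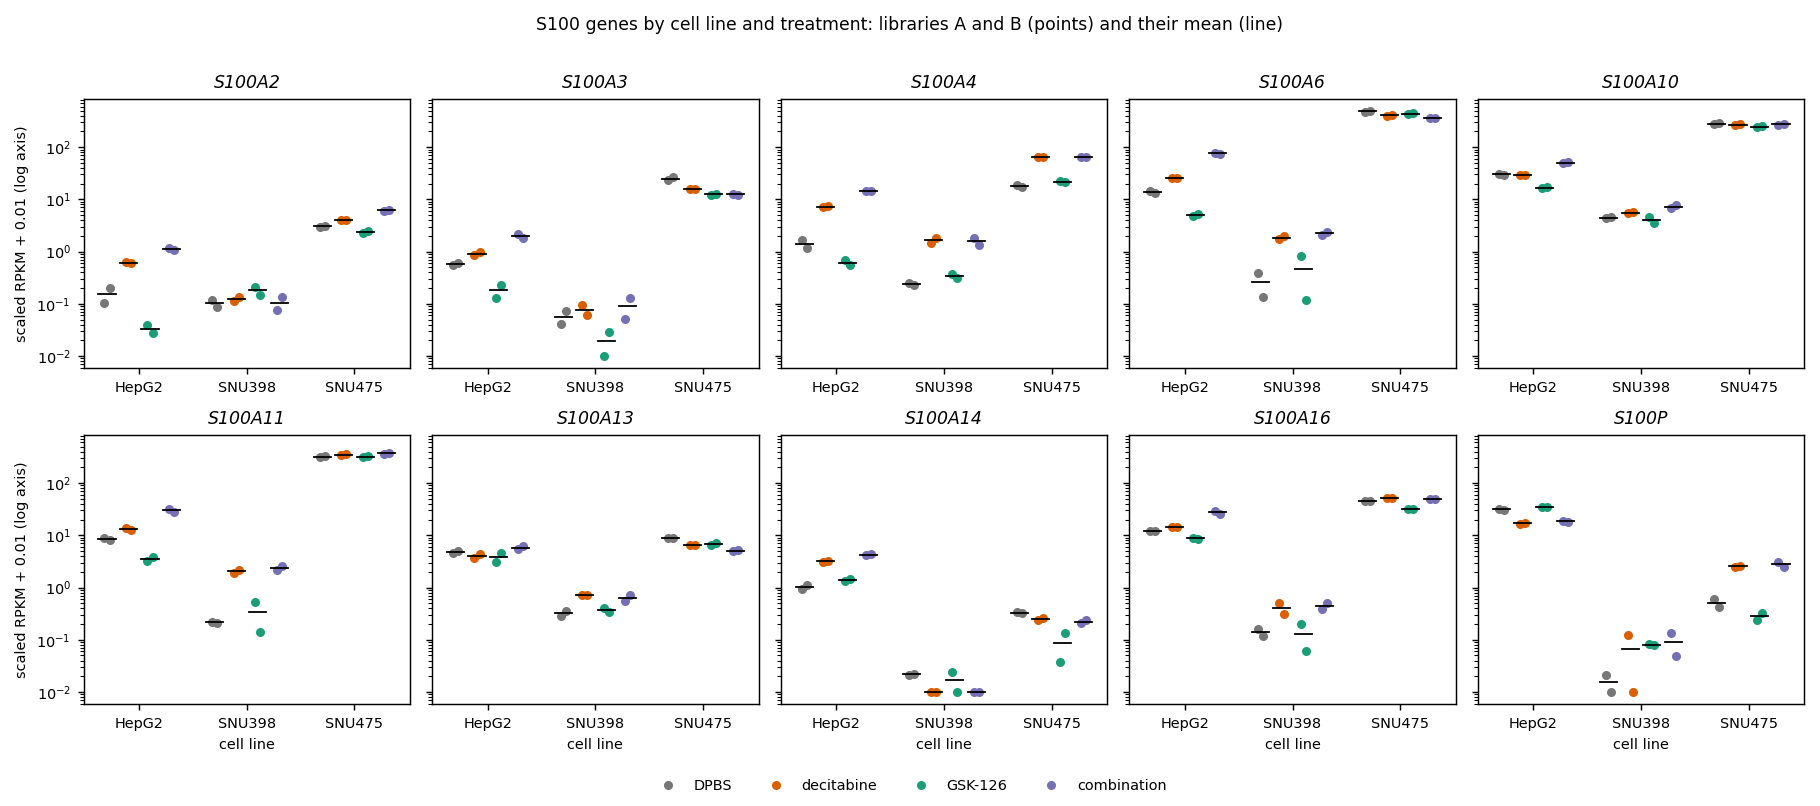
Level of each S100 gene (y axis, scaled RPKM + 0.01, log axis) by cell line and treatment, with points for libraries A and B and a line for their mean. S100A4 sits higher after decitabine and after the combination in each line, while S100A6 and S100A11 do so in HepG2 and SNU398 and stay between 362 and 493 and between 311 and 376 in SNU475.

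S100A4, whose rise with decitabine chose the set, was higher in both decitabine libraries than in both vehicle libraries of each line. In HepG2 it stood at 7.24 and 7.31 after decitabine against 1.67 and 1.14, a ratio of 5.17 and a log2 change of 2.04 (SE 0.12). In SNU398 it stood at 1.47 and 1.81 against 0.238 and 0.224, a ratio of 7.12. In SNU475 it stood at 64.8 and 63.9 against 18.6 and 17.1, a ratio of 3.61. The ratio was thus largest in the line with the lowest level, and the difference in level was largest in SNU475.

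The other 9 genes did not share one pattern after decitabine alone. S100A6 and S100A11 stood at 1.85-fold and 1.55-fold their vehicle level in HepG2 and were also higher in SNU398. There S100A6 stood at 1.75 and 1.95 against 0.385 and 0.126, and S100A11 at 1.89 and 2.16 against 0.212 and 0.202. The SNU398 vehicle levels lay near a ceiling of RNA from the other lines that is described below, so no fold is given. In SNU475, S100A6 was lower, at 403 and 416 against 478 and 493, and S100A11 stood at 343 and 356 against 311 and 325. S100A2 and S100A14 stood at 4.22-fold and 3.09-fold in HepG2. S100P was lower in HepG2 after decitabine, at 16.8 and 16.9 against 32.6 and 30.5, and higher in SNU475, at 2.51 and 2.61 against 0.592 and 0.413. S100A3 was lower in SNU475, at 16 and 15.8 against 23.5 and 26.4, although S100A4, whose span contains it, was higher in those libraries. The median log2 change of the 10 genes was 0.5 in HepG2, 0.4 in SNU398 and 0.03 in SNU475, beside 0.07, 0.02 and -0.01 over all genes tested.

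The combination against GSK-126 alone shows what decitabine added in cells that also received the EZH2 inhibitor, and it shares no library with the contrast that chose the set. S100A4 was higher in the combination in all 3 lines. In HepG2 it stood at 14.5 and 14.3 against 0.674 and 0.539, a 23.7-fold difference and a log2 change of 3.75 (SE 0.12, limma adjusted p = 1.5e-12). In SNU398 it stood at 1.83 and 1.33 against 0.365 and 0.296, 4.78-fold higher (log2 change 1.31, SE 0.12, limma adjusted p = 3.8e-07). In SNU475 it stood at 64.0 and 65.3 against 22.4 and 21.2, 2.97-fold higher (log2 change 1.55, SE 0.12, limma adjusted p = 1.4e-07). The libraries of the groups did not overlap in any line.

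In HepG2, 9 of the 10 genes rose and 1 fell in that comparison, where 36.9% of all genes tested rose and 28.8% fell. S100A6 rose from 4.82 and 5.13 to 77.2 and 75.0, which is 15.3-fold (log2 change 3.81, SE 0.24). S100A11 rose from 3.19 and 3.91 to 31.7 and 28.2, which is 8.44-fold (log2 change 2.91, SE 0.16). These calcium-dependent partners of annexins were joined by S100A10, which rose 3.03-fold from 16.2 and 17.1 to 48.9 and 51.7. Among the epithelial members, S100A14 rose from 1.30 and 1.46 to 4.11 and 4.44, and S100A2 from 0.0296 and 0.0172, which is 3 reads in all, to 1.18 and 1.05. S100A3 rose 11.6-fold, from 0.121 and 0.221 to 2.15 and 1.79, beside the rise of S100A4. S100A16, studied in fat cell formation, rose 3.13-fold, and S100A13, which takes part in the release of FGF1, rose 1.52-fold. S100P was the gene that fell, from 35.0 and 34.3 to 18.9 and 17.9, by 1.88-fold (limma adjusted p = 3.8e-06). The median log2 change of the 10 genes was 1.61, beside 0.04 over all genes tested. Other marker lists moved in these libraries. The hepatocyte sum was 11300 in both combination libraries and 16400 and 16600 after GSK-126, with 0 of 18 genes called by limma and 1 at an unadjusted p under 0.05. The log2 changes of the 18 ran from -1.45 to 0.41, with a median of -0.28. The spread was shared with SNU398 and SNU475, where these genes were near 0 and replicates differed (sums of 1.33 and 75.7 after decitabine in SNU398). The lack of calls therefore does not mean no change in HepG2. The immune-cell sum, over 13 genes of which 7 were tested, was 346 and 355 against 174 and 177, with 5 called higher. The leukocyte marker PTPRC was at most 0.0188 in HepG2. Of the 13 genes, 3 were at 1 or more in both combination libraries and 1 in both GSK-126 libraries. That 1 was LYZ, which stood at 50 or more in every HepG2 library. Of the 13 mesenchymal genes, 7 rose and 1 fell, with sums of 342 and 343 against 332 and 340. The part of these lists in the S100 changes was not tested, and in bulk RNA fewer cells of a type and less RNA per cell cannot be told apart.

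In SNU398, 6 of the 10 genes rose and 0 fell, against 26.6% and 23.5% of all genes, and S100A2 was lower at an unadjusted p of 0.032. These were S100A11 (log2 change 1.84, SE 0.16), S100A6 (1.60, SE 0.24), S100A4, S100A10 (0.76, SE 0.08), S100A16 (0.60, SE 0.10) and S100A13 (0.38, SE 0.12). S100A10, at the highest level of them, went from 4.64 and 3.52 to 6.74 and 7.69. S100A2, S100A3, S100A14 and S100P had no call, and each stayed at or below 0.203 in all these libraries. Of the 13 mesenchymal genes, 9 rose and 0 fell in the same comparison, and their part in the result was not tested. S100A13's call was lost without GSK-126 replicate B (adjusted p = 0.1) and without combination replicate B (adjusted p = 0.14).

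In SNU475, 5 of the 10 genes rose and 1 fell, against 18.2% and 17.7% of all genes. S100P rose the most, from 0.234 and 0.314 to 3.12 and 2.43, which is 10.1-fold (log2 change 2.07, SE 0.11, limma adjusted p = 1.9e-09). S100A2 rose 2.60-fold from 2.29 and 2.48 to 6.11 and 6.31, S100A16 rose 1.53-fold, and S100A14 went from 0.0278 and 0.123 to 0.203 and 0.224. S100A13 fell 1.36-fold, from 6.53 and 7.18 to 4.95 and 5.12. The abundant members had no call. S100A6 stood at 433 and 443 against 362 and 365 in the combination (log2 change -0.27, SE 0.24), S100A11 at 315 and 325 against 364 and 376 (0.21, SE 0.16), and S100A10 at 242 and 249 against 271 and 279 (0.16, SE 0.08). Their libraries did not overlap, and limma on the SNU475 libraries of all treatments, without the other lines, called all 3 (adjusted p = 0.00062, 0.0045 and 0.0041). Which of the libraries left out of that fit made the difference was not tested. S100A13's fall was not called without GSK-126 replicate B (adjusted p = 0.1) or combination replicate A (adjusted p = 0.073), nor was S100A14's rise without GSK-126 replicate A (adjusted p = 0.07). Of the 13 mesenchymal genes, 6 rose and 1 fell here, and their part in the result was not tested.

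**Figure D3:**
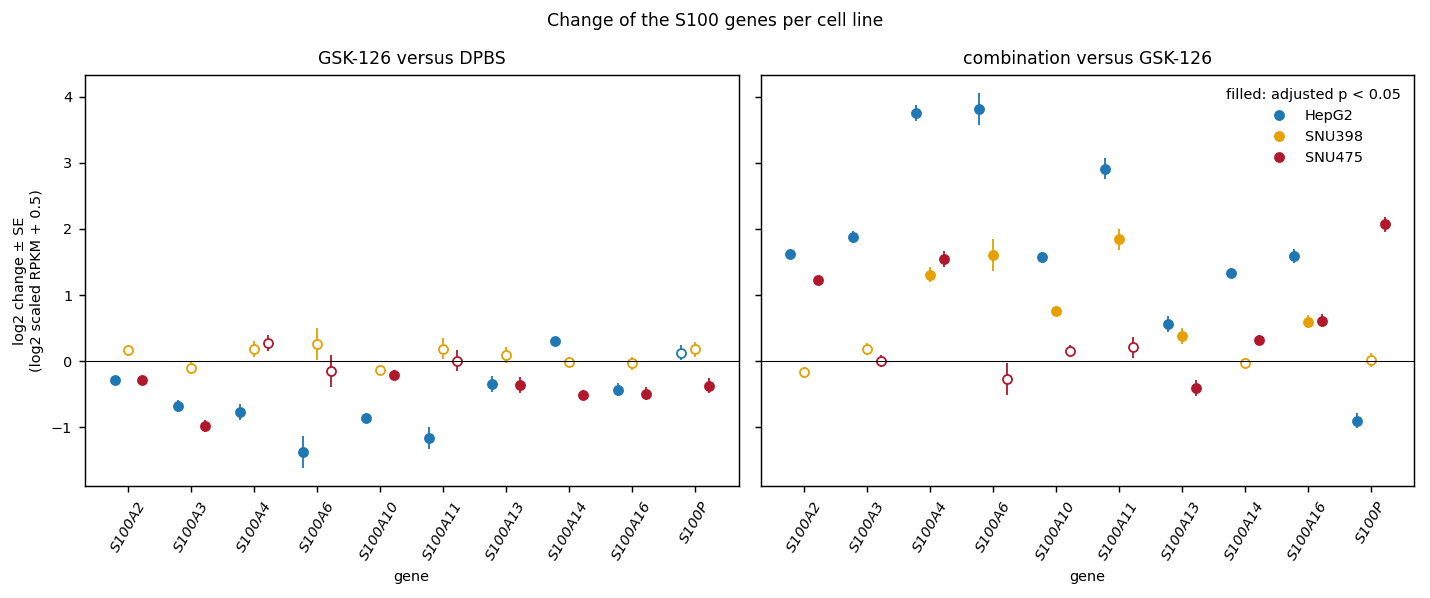
Log2 change with its standard error (y axis) of each S100 gene (x axis) for GSK-126 against vehicle (left) and for the combination against GSK-126 (right), by cell line. Filled points had an adjusted p under 0.05 by limma. HepG2 points are mostly below 0 on the left and, except for S100P at -0.90, above 0 on the right.

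After GSK-126 alone, most of these genes fell in HepG2. Against vehicle, 8 of the 10 genes fell and 1 rose, where 21.7% of all genes tested fell and 31.0% rose. The vehicle libraries are those of the contrast that chose the set, so the value of S100A4, which is counted among the 8, is not independent of that choice. S100A6 fell from 14.2 and 13 to 4.82 and 5.13, by 2.74-fold (log2 change -1.37, SE 0.24, limma adjusted p = 0.00017). S100A11 fell from 8.89 and 8.16 to 3.19 and 3.91, by 2.40-fold (log2 change -1.16, SE 0.16). S100A10 fell 1.84-fold, S100A4 fell 2.32-fold and S100A3 fell 3.34-fold. S100A14 was the gene that rose, from 0.924 and 1.13 to 1.30 and 1.46, and S100P had no call at 35.0 and 34.3 against 32.6 and 30.5. The smaller calls depended on single libraries: S100A13 (log2 change -0.34) was at -0.10 without GSK-126 replicate A (adjusted p = 0.47) and had no call without DPBS replicate B (0.15), S100A14 lost its call without DPBS replicate A (adjusted p = 0.056), with a pseudocount of 0.1 (0.082), with quantile normalization (0.051) and with voom (0.081), and S100A2 without DPBS replicate B (adjusted p = 0.06). The immune-cell sum was 439 and 453 after vehicle and 174 and 177 after GSK-126, with 4 of 7 tested genes called lower. Of its 13 genes only 1, LYZ, was at 1 or more in both libraries of each group, so the sum rests mainly on LYZ. The part of this list in the result was not tested.

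In SNU475, 7 of the 10 genes fell after GSK-126 and 0 rose, against 28.5% and 21.5% of all genes. S100A3 fell 2.01-fold from 23.5 and 26.4 to 12.3 and 12.6 (log2 change -0.98, SE 0.09, limma adjusted p = 2.3e-07). S100A14 fell 4.23-fold, from 0.325 and 0.310 to 0.0278 and 0.123, which rests on 11 reads after GSK-126. S100A16 fell 1.41-fold, from 45.7 in both libraries to 32.6 and 32.1. S100A10, S100A2, S100A13 and S100P fell 1.16-fold to 1.83-fold. S100A4 had no call at 22.4 and 21.2 against 18.6 and 17.1 (log2 change 0.28, SE 0.12, limma adjusted p = 0.071). It was the gene higher at an unadjusted p under 0.05 and the 1 that voom called higher (adjusted p = 3.4e-05). The vehicle libraries are those of the contrast that chose the set, so these values of S100A4 are not independent of that choice. Without DPBS replicate A or without GSK-126 replicate A the count was 4, since S100A10, S100A13 and S100P lost their calls, and with a pseudocount of 0.1 it was 3. S100A10's fall (log2 change -0.21, adjusted p = 0.047) was lost whichever SNU475 library was left out (adjusted p = 0.056 to 0.17). Marker lists moved in the same libraries, and their part in the result was not tested. The hepatocyte sum was 52.0 and 140 after vehicle and between 24.3 and 31.6 after GSK-126, with 4 of 18 genes called lower. The immune-cell sum was 13.4 to 14.2 against 5.3 to 5.59, with 2 of 7 tested genes called lower. Of the 13 immune-cell genes, 1 was at 1 or more in both libraries of each group. Of the 13 mesenchymal genes, 7 rose and 3 fell.

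In SNU398, limma called 0 of the 10 genes after GSK-126, where 30.0% of all genes rose and 22.4% fell. At an unadjusted p under 0.05 it was 1 gene, S100A2, and limma with voom weights on the recovered reads called 1, S100P, which had 1 read after vehicle. S100A6 stood at 0.810 in GSK-126 replicate A and 0.110 in replicate B, and S100A11 at 0.523 and 0.131, so these replicates differed more than the groups did. Without replicate B, S100A2, S100A6 and S100A11 were called higher after GSK-126, and without replicate A S100A10 was called lower (log2 change -0.31, adjusted p = 0.00077).

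Most S100 genes were higher in HepG2 after the combination than after decitabine alone, although most were lower after GSK-126 alone than after vehicle. The combination stood above decitabine alone for 9 of the 10 genes and below for 0, where 30.0% of all genes tested rose and 25.8% fell. S100A6 rose from 25.1 and 25.4 to 77.2 and 75.0, which is 3.02-fold (log2 change 1.58, SE 0.24, limma adjusted p = 4.7e-05). S100A11 rose 2.26-fold, S100A3 2.17-fold, S100A4 1.98-fold, S100A16 1.90-fold, S100A2 1.84-fold, S100A10 1.73-fold, S100A13 1.43-fold and S100A14 1.35-fold. S100P had no call, at 16.8 and 16.9 against 18.9 and 17.9. This contrast shares the decitabine libraries with the one that chose the set. The hepatocyte sum was 16400 to 16800 after decitabine and 11300 after the combination, with 1 of 18 genes called in each direction. The limit given above on calls of hepatocyte genes in HepG2 holds here too. Of the 13 mesenchymal genes 7 rose and 1 fell, and of the 7 tested immune-cell genes 3 rose and 1 fell. The part of these lists in the result was not tested.

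In SNU398 and SNU475 few genes differed between the combination and decitabine. In SNU398, 1 gene rose, S100A10 (5.48 and 5.69 against 6.74 and 7.69, log2 change 0.34, SE 0.08, limma adjusted p = 0.0086), and 0 fell, against 12.5% and 8.07% of all genes. That call was lost without decitabine replicate A, without combination replicate B and in a limma fit of the SNU398 libraries alone (adjusted p = 0.12). In SNU475, S100A2 rose 1.55-fold and S100A3 fell 1.28-fold, which is 1 in each direction, against 7.39% and 10.9% of all genes. S100A3's fall was lost without decitabine replicate A (adjusted p = 0.066) or combination replicate B (0.06). S100A4 was at nearly the same level with or without GSK-126 in these lines, at 64.8 and 63.9 against 64.0 and 65.3 in SNU475 (log2 change 0.01, SE 0.12) and at 1.47 and 1.81 against 1.83 and 1.33 in SNU398 (log2 change -0.05, SE 0.12). Its libraries overlapped in both.

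The interaction, the combination effect beyond the sum of the single-drug log2 changes, was tested for the 9 genes other than S100A4. In HepG2 it was above 0 for 7 of 9 and below for 0, where 25.1% of all genes were above and 27.9% below. It was largest for S100A6 (2.94, SE 0.33, limma adjusted p = 3e-06), S100A11 (2.31, SE 0.22) and S100A10 (1.63, SE 0.12). For S100A10 the single drugs gave levels of 28.9 and 29.4 (decitabine) and 16.2 and 17.1 (GSK-126) around a vehicle level of 31.1 and 29.9, while the combination gave 48.9 and 51.7. S100A14 (0.07, SE 0.11) and S100P (-0.01, SE 0.16) had no call. The value for S100A4, a description, was 1.71 in HepG2, -0.23 in SNU398 and -0.27 in SNU475. In SNU398, 1 of 9 was above 0, S100A10 (0.47, SE 0.12), and 0 below, against 18.4% and 22.8% of all genes, and a fit of SNU398 alone gave adjusted p = 0.078 for it. In SNU475, 5 of 9 were above 0 and 0 below, against 19.7% and 16.6% of all genes: S100A2 (0.87), S100A3 (0.63), S100A14 (0.46), S100P (0.46) and S100A16 (0.45). S100P and S100A16 lost their calls without DPBS replicate A and without either decitabine library, which left 3, and with a pseudocount of 0.1 the count was 2.

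The changes differed between the lines. An F-test that the log2 change was equal in the 3 lines was called for 10 of 10 genes for the combination against GSK-126, where 74.5% of all genes were called, and for 10 of 10 for GSK-126 against vehicle, where 71.5% were called. The genes' counts are read against these high shares. The second test uses the vehicle libraries of the contrast that chose the set, so its result for S100A4 is not independent of that choice. The widest gap was that of S100A6 in the combination against GSK-126, 3.81 in HepG2 against -0.27 in SNU475 (limma adjusted p = 2e-07). S100P followed, at -0.90 in HepG2 against 2.07 in SNU475 (adjusted p = 1.1e-09). For S100A4 the log2 change was 3.75 in HepG2 against 1.31 in SNU398 and 1.55 in SNU475 (adjusted p = 1.3e-08). Across the 12 groups, the order of S100A4 levels ran from SNU475 combination and decitabine (64.6 ± 0.947 and 64.4 ± 0.64, SD, n = 2, overlapping) over SNU475 GSK-126 and DPBS (21.8 and 17.8) to HepG2 combination (14.4) and decitabine (7.27). The lower groups were SNU398 decitabine, SNU398 combination and HepG2 DPBS (1.64, 1.58 and 1.41, with overlaps between neighbours), HepG2 GSK-126 (0.607), SNU398 GSK-126 (0.33) and SNU398 DPBS (0.231).

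The low SNU398 values were set against the RNA that another line could have added. The hepatocyte sum differed between SNU398 replicates, at 75.7 in one decitabine library and 1.33 in the other. For each library, protein-coding genes at 50 or more scaled RPKM in all 8 libraries of another line were expressed as a percent of their level there, and the median of the 5 lowest percents was taken as a ceiling on the share of that line's RNA. This measure was chosen after the values were seen. The ceiling of SNU475 RNA in SNU398 libraries was 0.0382% to 0.299%. With the S100A6 level of SNU475, RNA of the other lines up to this ceiling would give 0.915 and 0.208 of the 0.810 and 0.110 measured after GSK-126, and 0.224 and 0.162 of the 0.385 and 0.126 after vehicle. For S100A11 the ceilings were 0.731 and 0.160 after GSK-126 against 0.523 and 0.131 measured. So S100A6 and S100A11 were under the ceiling in both GSK-126 libraries of SNU398, and expression of these genes there was not detectable above it. After decitabine, the ceilings were 1.12 and 0.342 against 1.75 and 1.95 measured for S100A6, and 0.867 and 0.274 against 1.89 and 2.16 for S100A11. After the combination, the ceilings were 0.814 and 1.30 against 2.03 and 2.40 measured for S100A6, and 0.650 and 1.03 against 2.19 and 2.58 for S100A11. For S100A4 the ceilings were 0.0161 to 0.131 in all SNU398 libraries against 0.224 to 1.83 measured. With the ceilings subtracted from all genes of all libraries, the log2 changes for the combination against GSK-126 in SNU398 were 1.34 for S100A4, 1.73 for S100A6 and 2.03 for S100A11, each called by limma (adjusted p = 7.1e-07, 2.2e-06 and 2.3e-08). In HepG2 combination libraries the S100A6 ceilings were 1.5 and 2.35 against 77.2 and 75.0 measured.

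**Figure D4:**
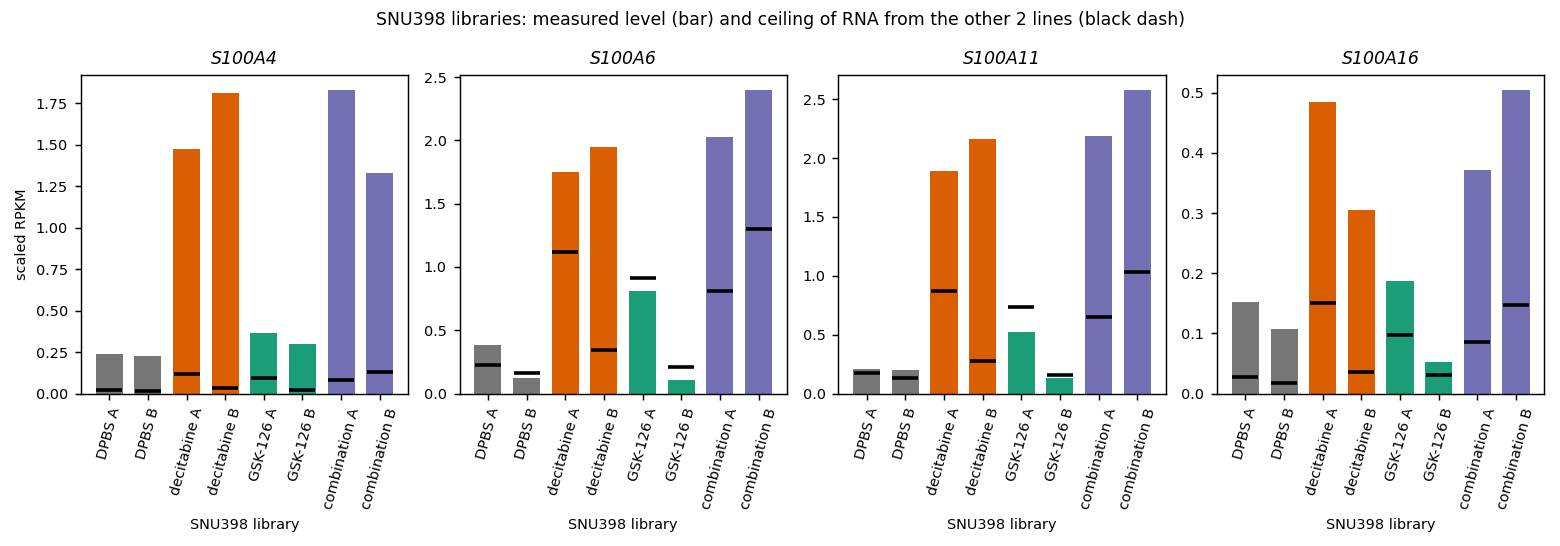
Level of 4 S100 genes in the 8 SNU398 libraries (bars, y axis, scaled RPKM, a separate axis per gene), with the ceiling of RNA from the other 2 lines as a black dash. S100A6 and S100A11 lie under the dash in both GSK-126 libraries and above it in all decitabine and combination libraries.

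The genes around the S100 genes moved in both directions. Within 100 kb of a member, 30 other genes were listed and 13 of these were tested, including the S100 relative S100A1. In the combination against GSK-126, 3 rose and 4 fell in HepG2, beside 36.9% and 28.8% of all genes. In SNU398 3 rose and 5 fell, beside 26.6% and 23.5%, and in SNU475 2 rose and 2 fell, beside 18.2% and 17.7%. The median log2 changes were 0.08, 0.01 and 0.01. These counts pool genes near S100P on chromosome 4 with genes on chromosome 1, and none tested lay within 100 kb of S100A10 or S100A11. In HepG2, S100A1 rose and CHTOP fell on chromosome 1. Near S100P, AC093323.3 (0.57) and BLOC1S4 (0.37) rose, and MRFAP1 (-0.22), MRFAP1L1 (-0.53) and KIAA0232 (-0.21) fell. S100A1, a member of muscle cells, lies next to S100A13 and rose in HepG2 (log2 change 0.52, SE 0.06) and SNU475 (0.64, SE 0.06). CHTOP, which shares 44 bases with S100A13 and encodes an mRNA export factor, fell in HepG2 (-0.23, SE 0.03) and rose by 0.08 and 0.09 in SNU398 and SNU475. The antisense gene BX470102.3 beside S100A6 had no call in any line. Near S100P, MRFAP1L1 fell in all 3 lines (-0.53, -0.42 and -0.17) while S100P fell in HepG2 and rose in SNU475. Within the cluster itself the changes were uneven as well. S100A3 and S100A4 overlap, yet in SNU475 S100A3 was at -0.00 (SE 0.09) where S100A4 was at 1.55.

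**Figure D5:**
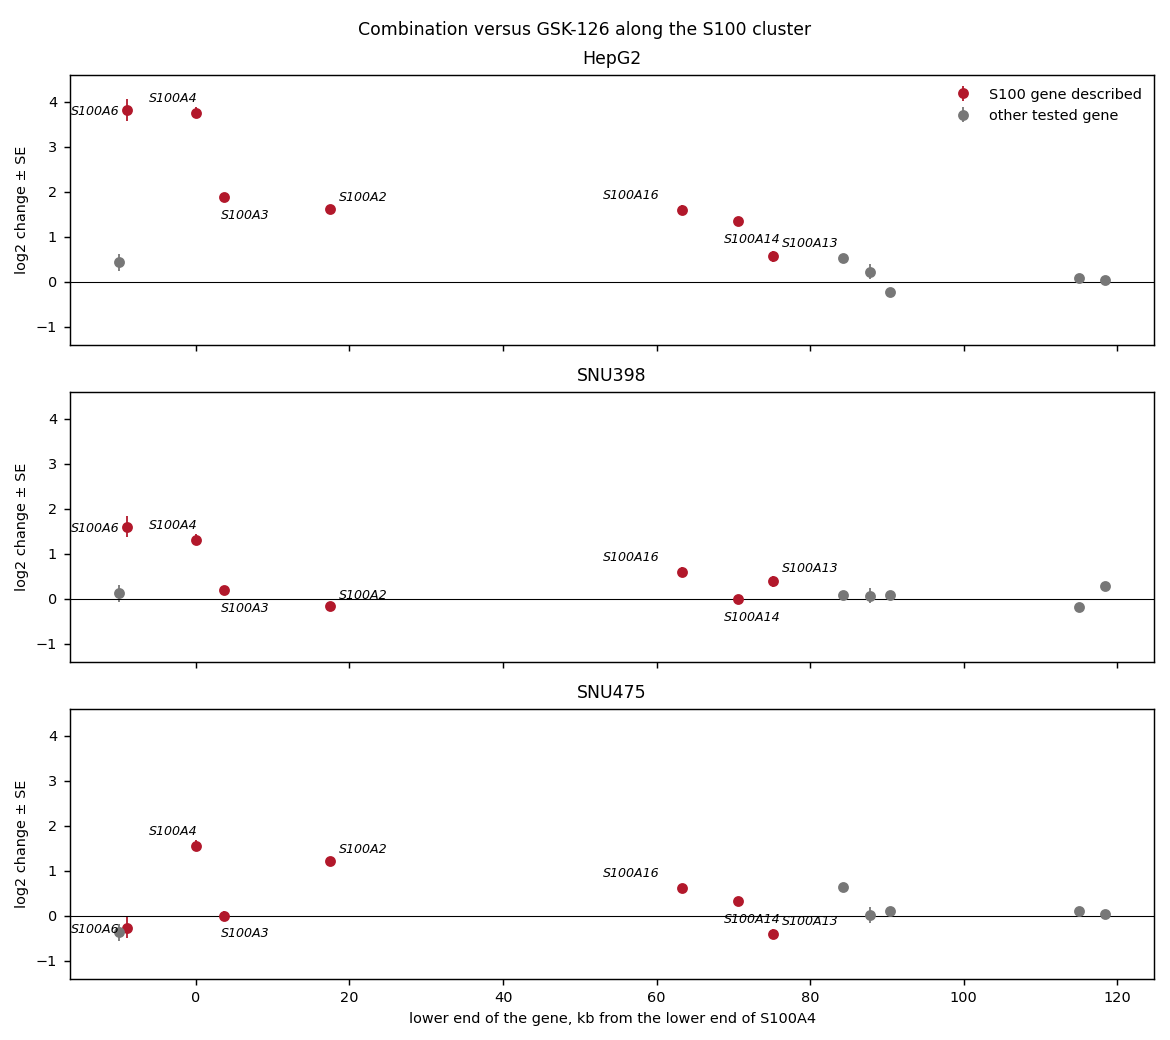
Log2 change with its standard error for the combination against GSK-126 (y axis) of tested genes by distance in kb of the gene's lower end from that of S100A4 (x axis), in one panel per cell line. S100 genes of the set are red and other tested genes grey, and in HepG2 the red points lie between 0.56 and 3.81 and the grey ones between -0.23 and 0.52.

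Of 12 other genes of the family looked for, S100PBP, an S100P-binding protein, included, 3 passed the filter on low values: S100A1, S100A9 and S100PBP. S100A9, the myeloid calgranulin, had 1 read in both HepG2 GSK-126 libraries together. It stood at 7.95 ± 0.215 (SD, n = 2) after the combination, with a log2 change of 4.02 (SE 0.18). S100A9 passed the filter only through the HepG2 decitabine and combination libraries, so this change is a description with no test. Its usual partner S100A8 was not above 0.0347 in any library. S100A7A and S100A7L2 were listed at 0 throughout, and S100B at no more than 0.184.

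The annexins, the calcium-dependent membrane binders that several S100 proteins dock to, also rose in HepG2. In the combination against GSK-126, 10 of 12 tested annexins rose and 0 fell there, beside 36.9% and 28.8% of all genes, with a median log2 change of 0.71 beside 0.04. ANXA2, the partner of S100A10, rose from 4.98 ± 0.0433 to 24.2 ± 0.932 (SD, n = 2, log2 change 2.17, SE 0.03). ANXA3 rose by 1.60 and ANXA11, a partner of S100A6, by 1.22 on the log2 scale. After GSK-126 alone, 7 of the 12 fell in HepG2 and 1 rose, beside 21.7% and 31.0% of all genes, and ANXA2 was among those that fell (log2 change -0.72). In the combination against GSK-126, 4 annexins rose and 3 fell in SNU398, beside 26.6% and 23.5% of all genes, and 5 rose and 3 fell in SNU475, beside 18.2% and 17.7%. The medians were 0.02 and 0.03.

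Of 14 other partners in HepG2, 5 rose and 6 fell in the combination against GSK-126, beside 36.9% and 28.8% of all genes. Their median log2 change was 0.02. PLG, plasminogen, had the largest fall, from 25.8 to 13.8 (-0.88, SE 0.07). MYH9, the myosin heavy chain bound by S100A4, rose from 44.8 to 97.9 (log2 change 1.12, SE 0.03), and EZR, the membrane linker bound by S100P, rose from 29.9 to 65.5 (1.12, SE 0.03) while S100P fell. In SNU398, 9 of 14 rose and 2 fell, beside 26.6% and 23.5% of all genes, with a median of 0.17. In SNU475, 5 rose and 3 fell, beside 18.2% and 17.7%. AHNAK, the large scaffold bound by S100A10, rose in SNU398 from 3.40 to 7.17 (0.97, SE 0.03) and fell in SNU475 from 68.7 to 48.5 (-0.50, SE 0.03). FGF1, exported with S100A13, rose in SNU475 from 0.393 to 1.63 (1.25, SE 0.04) while S100A13 fell. Of 4 receptors of extracellular S100 proteins, 2 rose and 1 fell in HepG2 and SNU398, and 1 rose and 1 fell in SNU475. These counts stand beside the same shares of all genes in each line. ALCAM fell in HepG2 from 12.2 to 7.14 (-0.74, SE 0.03).

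The genes whose pattern was most like that of S100A4 were ranked by Pearson's r over the 24 libraries on the log2 scale, after each line's mean was removed, among 12697 genes. These were MAGEB2 (r = 0.98), a cancer-testis antigen, IL18 (0.97), a cytokine of the interleukin-1 family, ACRC (0.97), PNMA5 (0.96) and the RNA gene RN7SL471P (0.96). The libraries share 12 treatment groups, and r is a description. Like S100A4, IL18 had its highest levels in SNU475, with a mean of 7.18 after vehicle and 18.5 after decitabine, while in HepG2 it went from 0.206 to 1.17. MAGEB2 was near 0 after vehicle in all 3 lines (0.0694, 0.0273 and 0.183) and stood at 9.93, 1.73 and 1.90 after the combination, so the genes shared a shape over treatments and not a level.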

How the data were processed

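Total RNA was sequenced as single-end reads of 75 bases after ribosomal RNA depletion, per the labels' protocols. The authors deposited a gene table in RPKM. The submitters' processing notes name HISAT2, featureCounts and the build hg19. For versions, annotation and strand setting, nothing is given in the sources used here. The low RPKM values were whole multiples of 1 read within 0.15 reads for 100% of values checked, which gave reads per library.

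RPKM were divided by median-of-ratios factors over 8211 genes with RPKM of at least 1 in all libraries. Limma 3.58.1 (R 4.3.3) was fitted to log2(scaled RPKM + 0.5) with 12 group means, trend and robust settings, for 19377 genes with RPKM of at least 0.5 in 2 libraries, with Benjamini-Hochberg adjustment, and was tested on simulated data. The genes and gene lists were chosen with earlier results of these data known. The 10 genes are always named. Of each list, up to 4 called genes with the largest change and a mean of at least 1 were named. The alternatives are a pseudocount of 0.1 or 1, no scaling, quantile normalization, no filter, the libraries of 1 line alone, the replicate block and voom on recovered reads. For comparisons of lines under vehicle, the vehicle libraries alone were fitted in place of 1 line. Leaving out each library was another, as was, chosen after seeing the data, subtracting the ceiling of RNA from the other lines. Repeat loci were not used here.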

Additional observations from a re-analysis of the deposited data

Results flagged for a closer look

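Each of the 10 S100 genes had log2 changes that differed between the 3 lines by limma's F-test, for both comparisons that do not use the decitabine libraries. For the combination against GSK-126, the widest gap between lines was 4.08 for S100A6, 2.97 for S100P, 2.70 for S100A11, 2.44 for S100A4, 1.89 for S100A3, 1.79 for S100A2, 1.40 for S100A10, 1.36 for S100A14, 0.98 for S100A16 and 0.97 for S100A13. For GSK-126 against vehicle, the gap was 1.63 for S100A6, 1.35 for S100A11, 1.05 for S100A4, 0.87 for S100A3, 0.82 for S100A14, 0.73 for S100A10, 0.54 for S100P, 0.47 for S100A2, 0.46 for S100A16 and 0.45 for S100A13. The last was the least firm (adjusted p = 0.044). Such differences were called for 74.5% and 71.5% of all genes tested, and harvest day differed between lines. The added 0.5 understates changes of low genes, so the gaps also depend on level. The vehicle libraries took part in the choice of S100A4, so its gap for GSK-126 against vehicle is not independent of that choice.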

How the results depend on the processing

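Of 92 called changes of the S100 genes, a pseudocount of 0.1 ended 11, voom 3 and fitting 1 line, or the vehicle libraries, alone 6. Leaving out single libraries ended others. In SNU398, the count for GSK-126 against vehicle, 0, was 1 with a pseudocount of 0.1, with no scaling, with voom and with the ceiling subtracted, and 0 to 3 with 1 library left out. There the combination against decitabine and the interaction, 1 each, were 0 in a fit of SNU398 alone, and both counts could change with 1 library left out. In SNU475, the count for GSK-126 against vehicle, 7, was 3 with a pseudocount of 0.1 and 4 to 6 with 1 library left out. The combination against decitabine, 2, was 1 with that pseudocount, 4 in a fit of SNU475 alone and with voom, and could be lower with 1 library left out. The interaction, 5, was 2 with that pseudocount, 3 with no filter and 3 to 4 with 1 library left out. The interaction of S100A6 in SNU398 reversed from -0.06 to 0.5 without GSK-126 replicate A (adjusted p = 0.046), and was -0.61 without replicate B (adjusted p = 0.017). The cause of these changes was not tested.

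The main fit did not pair libraries by the letters A and B. Over 6216 genes, the differences of A and B were correlated between the groups of a line. These correlations ran from -0.12 to 0.2 in HepG2, from -0.5 to 0.45 in SNU398 and from -0.4 to 0.56 in SNU475. With both signs and this width, they cannot decide whether libraries of the same letter belong together. A replicate block ended 1 call, S100A10 for GSK-126 against vehicle in SNU475 (-0.21, adjusted p = 0.077), and added 1, S100A13 for the combination against decitabine there (-0.34, adjusted p = 0.017).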
